A study of Drosophila melanogaster with 30 samples.

Results

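Serotonin, dopamine and octopamine receptors were followed in fly brains kept awake, stimulated by hand or left undisturbed. Receptor genes were taken from a list of 8: 5-HT1A, 5-HT1B, 5-HT2A and 5-HT7 for serotonin, Dop1R1, Dop1R2 and Dop2R for dopamine, and Oamb for octopamine. Probe sets were found by the platform's gene symbol, updated by gene number. Of the 8 genes, 6 had a probe set, giving 7 probe sets out of 13966 on the array, because Dop2R has 2, called here by their signal the dimmer and the brighter Dop2R probe set. Dop1R2 and Oamb had no listed probe set and were not analysed here, so octopamine signalling is represented only by the related receptors described further on.

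Each array carried RNA from a pool of 139 to 193 whole brains of 5-day-old virgin Canton-S females, a wild-type strain, and every group had 3 arrays. In the sleep deprivation experiment (21 arrays, 7 groups), flies were kept awake by hand for 2, 4 or 6 h from ZT14, the start of their long night sleep. ZT counts hours from lights-on, and lights were on for 12 h a day, so ZT10 fell in the light and ZT14 in the dark. Undisturbed sleeping flies were killed at the same hours, ZT16, ZT18 and ZT20, and 1 further undisturbed group gave the 0 h point at ZT14. The active period experiment had 9 arrays in 3 groups. Its stimulated flies were handled between ZT10 and ZT14, hours in which flies are awake by themselves. They were set against undisturbed wake flies of ZT14, and another group was killed at ZT10. All 10 groups shared strain, sex, age and housing, and no genetic change was made in any of them.

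These receptors all sit in the cell membrane and act through G proteins. Receptors that couple to Gs raise cyclic AMP, those that couple to Gi lower it, and those that couple to Gq release calcium through phospholipase C. In the fly brain, dopamine and octopamine are known to promote waking, and serotonin acting on 5-HT1A is known to promote sleep.

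The values are log2 signals, and 1 unit is a 2-fold difference in hybridisation signal. The level of one probe set cannot be set against that of another, because probes differ in brightness, so levels are compared only within a probe set. Array medians ran between 4.88 and 4.96, and the correlation of 2 arrays from 1 group lay between 0.974 and 0.997. The 8 control probe sets for mouse and yeast sequences gave 2.18 to 4.27. Readings of 5-HT7 (3.07 to 4.12) and of the dimmer Dop2R probe set (3.51 to 4.19) lay inside that range on every array, so both are dim. The other 5 probe sets were above it on every array.

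**Figure D1:**
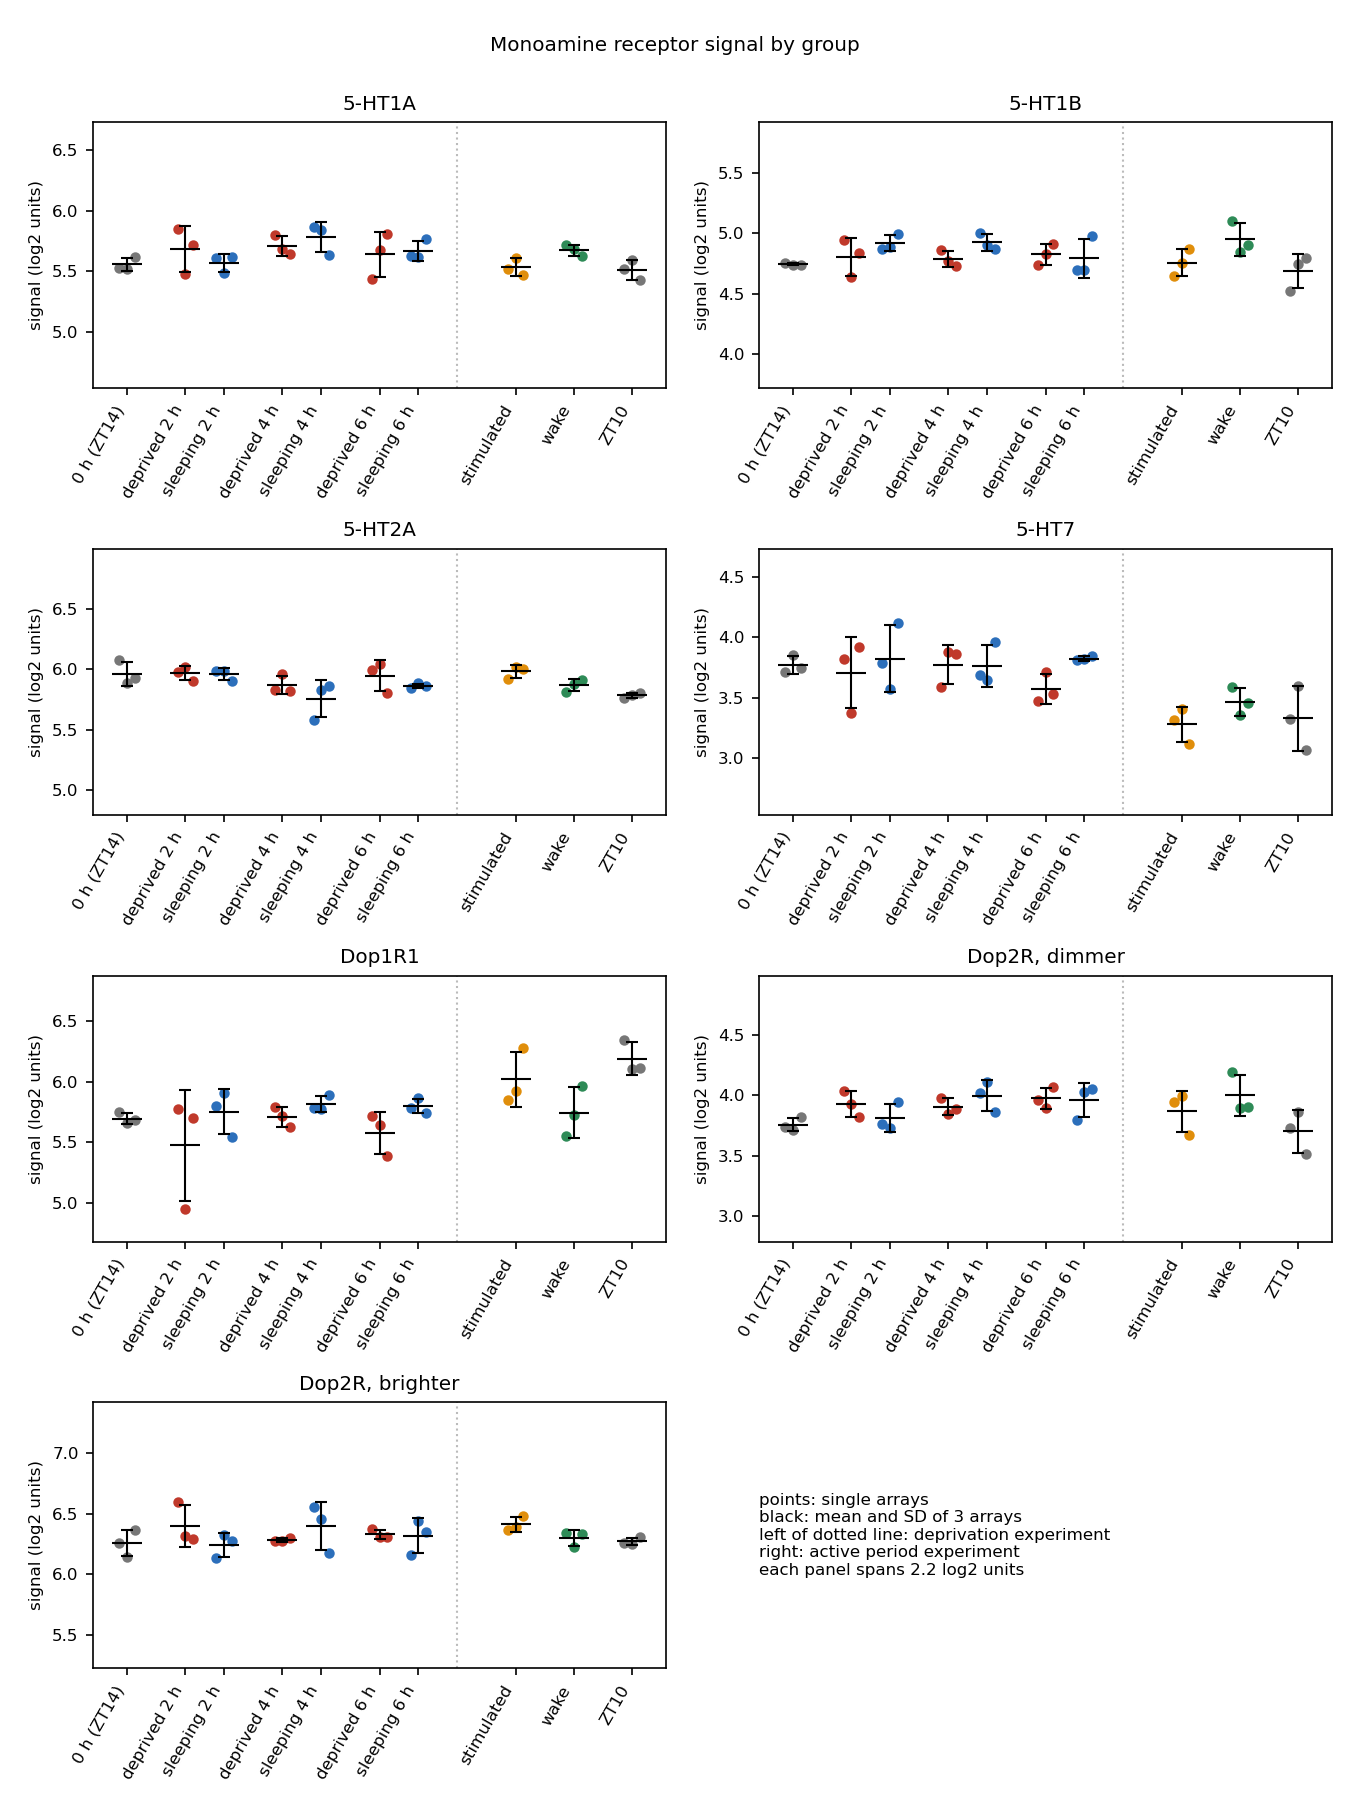
Log2 signal (vertical axis) of the 7 receptor probe sets in each of the 10 groups (horizontal axis). Points are single arrays, black marks are the mean and SD of 3 arrays, and every panel spans the same height of 2.2 log2 units. Most groups of a probe set share much of their range; the lowest Dop1R1 point is deprived 2 h replicate 2 at 4.95, and the ZT10 points of Dop1R1 (6.11 to 6.35) are the highest group of that panel.

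Receptor signals stayed in a narrow band over the night. Within the deprivation experiment, the means of the 7 groups differed by at most 0.34 log2 units (Dop1R1) and by as little as 0.16 (the brighter Dop2R probe set). For every probe set, groups that were neighbours in the order of means overlapped. A moderated F test for any difference among the 7 groups, in limma, called 0 of 7 receptor probe sets at an adjusted p under 0.05, and 0 of 7 had an unadjusted p under 0.05; of all probe sets, 0.329% and 11% did so. The smallest adjusted p, 0.526, belonged to the dimmer Dop2R probe set.

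The main question was whether staying awake through the sleep period alters receptor transcripts. Averaged over the 3 hours, the matched differences gave no receptor call: limma called 0 of 7 receptor probe sets in deprived against sleeping brains (adjusted p under 0.05). Over all probe sets 0.924% were called. At an unadjusted p under 0.05 there was 1 receptor probe set, Dop1R1, where 14.4% of all probe sets passed. The median difference of the 7 was 0.0031 log2 units, against 0.0095 for all probe sets. The 95% intervals hold for this fit, which has no term for batch or for the array controls. Other settings moved some estimates, as given below. For Dop1R1 the deprived to sleeping ratio lay between 0.767 and 0.988, and for the other 6 probe sets the intervals ran from 0.819 at the lowest to 1.12 at the highest.

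Dop1R1, the dopamine receptor that raises cyclic AMP and is known for its part in dopamine-driven arousal, had the largest difference. After 2 h its signal was 5.78, 4.95 and 5.70 in deprived brains, against 5.80, 5.91 and 5.54 in sleeping brains. After 4 h it was 5.79, 5.71 and 5.62 in deprived brains, against 5.78, 5.78 and 5.89 in sleeping brains. After 6 h it was 5.71, 5.64 and 5.38 in deprived brains, against 5.78, 5.86 and 5.74 in sleeping brains. Deprived arrays were low at 6 h without overlap, while at 2 and 4 h the groups overlapped; the ZT14 arrays, at 5.75, 5.66 and 5.68, overlapped both 6 h groups. The mean difference was -0.20 ± 0.087 log2 units (SE; 0.871-fold), and 8 of 9 deprived arrays were below the mean of the sleeping arrays of their hour. It did not pass the adjustment (limma, unadjusted p = 0.0332, adjusted p = 0.317).

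A large share of that difference came from deprived 2 h replicate 2, the lowest Dop1R1 reading of all 30 arrays. Without it the mean difference was -0.11 log2 units. The same array was low for neuron markers: of 6 such genes 5 were measured (elav, nSyb, brp, Syn and para), and their mean was 5.15 there. Over all deprived arrays this mean ran from 5.15 to 6.46, against 6.29 to 6.64 over sleeping arrays. In deprived 2 h replicate 2, elav read 4.77, nSyb 5.98 and Syn 4.63, against 6.15, 7.84 and 6.42 in sleeping 2 h replicate 2. The next lowest neuron mean, 5.82, was in deprived 6 h replicate 3, which also had the next lowest Dop1R1 signal, 5.38. The actin control's excess of 3' over 5' signal was 2.70 in deprived 2 h replicate 2, the highest of the deprivation experiment. With the excess of 3' over 5' signal of the control probe sets as a covariate, the mean Dop1R1 difference was -0.24 log2 units. In whole brain RNA, fewer neurons and less receptor RNA per neuron cannot be told apart. The part of the neuron markers in the Dop1R1 difference was not tested.

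**Figure D2:**
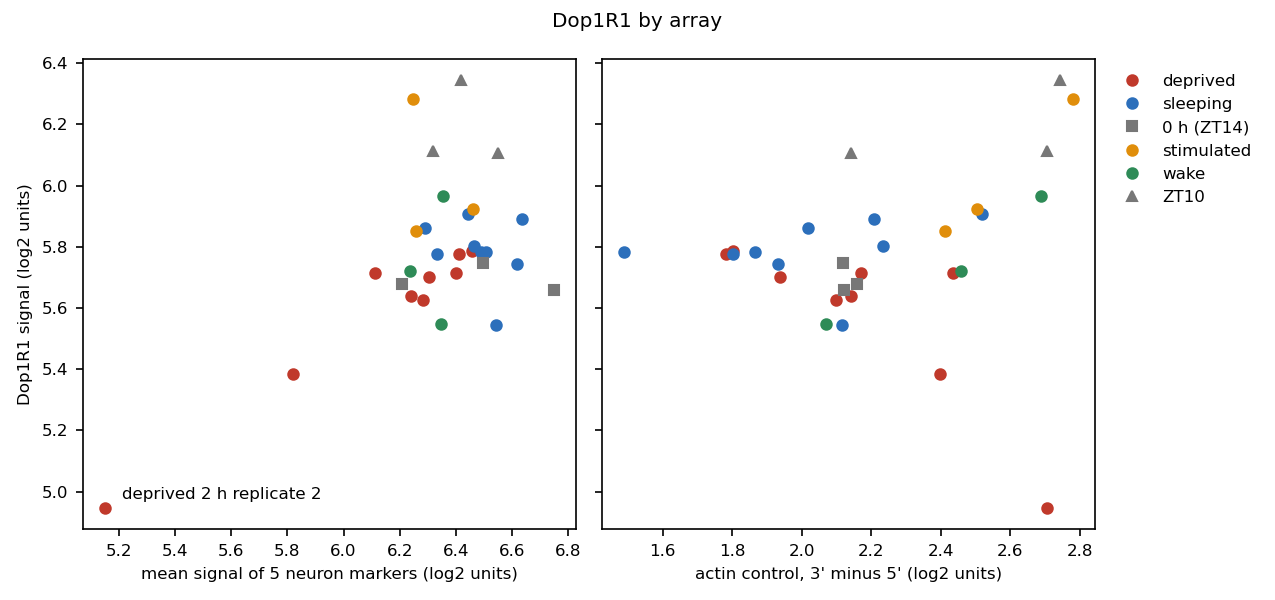
Dop1R1 log2 signal (vertical axis) of all 30 arrays against the mean log2 signal of 5 neuron markers (left) and the actin control's 3' minus 5' difference (right). Each point is an array, coloured by group. Deprived 2 h replicate 2 (4.95) stands apart at the low end of the neuron markers (5.15), and deprived 6 h replicate 3 (5.38 at 5.82) is next.

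Dop2R, the inhibitory dopamine receptor that lowers cyclic AMP and also acts as an autoreceptor on dopamine neurons, had differences near 0. Its brighter probe set read 6.60, 6.31 and 6.29 in deprived brains at 2 h, against 6.13, 6.32 and 6.28 in sleeping brains. At 4 h it read 6.28, 6.27 and 6.30 in deprived brains, against 6.55, 6.46 and 6.17 in sleeping brains. Groups overlapped at every hour. Mean differences were 0.02 ± 0.059 log2 units for the brighter (SE; limma adjusted p = 0.901) and 0.01 ± 0.051 for the dimmer probe set (adjusted p = 0.929). The 2 probe sets of this gene correlated at r = 0.44 over 30 arrays after the mean of each experiment was removed, so they share only part of their variation.

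Among the serotonin receptors, 5-HT1A lowers cyclic AMP through Gi and is the one known to promote sleep in flies. Its mean difference was 0.0031 ± 0.058 log2 units (SE; adjusted p = 0.982), with a 95% interval of -0.12 to 0.12. At 2 h it read 5.85, 5.48 and 5.72 in deprived brains, against 5.61, 5.48 and 5.62 in sleeping brains. At 6 h it read 5.44, 5.68 and 5.81 in deprived brains, against 5.63, 5.62 and 5.77 in sleeping brains. At 4 h it read 5.80, 5.69 and 5.64 in deprived brains, against 5.87, 5.84 and 5.64 in sleeping brains. Groups overlapped at every hour, and 5 of 9 deprived arrays were above the sleeping mean of their hour.

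5-HT1B, a related Gi-coupled receptor known for a role in the clock's response to light, separated only at 4 h. There it read 4.86, 4.77 and 4.73 in deprived brains, against 5.01, 4.90 and 4.87 in sleeping brains, so all deprived arrays were lower. That makes 1 of 7 receptor probe sets with groups that did not overlap at 4 h, where 9.96% of all probe sets did the same. The 4 h difference was -0.14 ± 0.087 log2 units (SE; limma adjusted p = 0.956), and the mean over the 3 hours was -0.07 ± 0.050 (adjusted p = 0.509). It was -0.041 without sleeping 6 h replicate 3 and -0.044 without deprived 2 h replicate 2.

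5-HT2A, which acts through Gq, had a mean difference of 0.07 ± 0.048 log2 units (SE; limma adjusted p = 0.517), and 7 of 9 deprived arrays were above the sleeping mean of their hour. The difference was 0.038 without sleeping 4 h replicate 1 and 0.028 with the control covariate, which is the excess of 3' over 5' signal of the array's control probe sets. At 4 h it read 5.83, 5.96 and 5.82 in deprived brains, against 5.58, 5.83 and 5.86 in sleeping brains, and the groups overlapped. At 6 h it read 5.99, 6.04 and 5.80 in deprived brains, against 5.85, 5.88 and 5.86 in sleeping brains, again with overlap.

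5-HT7, the serotonin receptor that raises cyclic AMP, is one of the dim probe sets. At 6 h it read 3.47, 3.71 and 3.53 in deprived brains, against 3.81, 3.82 and 3.85 in sleeping brains. All deprived arrays were lower, and the sleeping arrays were tightly grouped. The 6 h difference was -0.25 ± 0.139 log2 units (SE; limma adjusted p = 0.330); the mean over the 3 hours was -0.12 ± 0.080 (adjusted p = 0.490). That mean was -0.065 without deprived 2 h replicate 2, and with the control covariate it turned to 0.071.

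At single hours limma called 0 of 7 receptor probe sets at 2, 4 and 6 h alike, and 0 of 7 had an unadjusted p under 0.05 at any of them. Over all probe sets 0.00716%, 0.0143% and 0.0931% were called, and 8.33%, 4.37% and 18% had an unadjusted p under 0.05. Groups did not overlap for 0 of 7 at 2 h and for 2 of 7 at 6 h (5-HT7 and Dop1R1), against 12% and 28.8% of all probe sets. At 6 h the mean signals of 3 marker lists also separated. Neuron markers ran from 5.82 to 6.24 in deprived brains, against 6.29 to 6.62 in sleeping brains. Glia markers (6 of 7 measured) ran from 6.995 to 7.26 in deprived brains, against 7.29 to 7.57 in sleeping brains. Antenna and chemosensory markers ran from 5.91 to 6.15 in deprived brains, against 5.21 to 5.63 in sleeping brains. Of their 7 listed names 6 had a probe set, and Os-E and Obp83b among these are the same gene. Trachea and cuticle markers stayed inside the range of the mouse and yeast controls, at 3.88 to 4.10 over deprived arrays, against 3.89 to 4.05 over sleeping arrays. At 2 h, where no receptor separated, neuron markers ran from 5.15 to 6.41 in deprived brains, against 6.44 to 6.54 in sleeping brains. Photoreceptor markers (3 of 9 measured) ran at 2 h from 6.82 to 7.49 in deprived brains, against 7.86 to 8.17 in sleeping brains. The part of these lists in the receptor values was not tested.

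**Figure D3:**
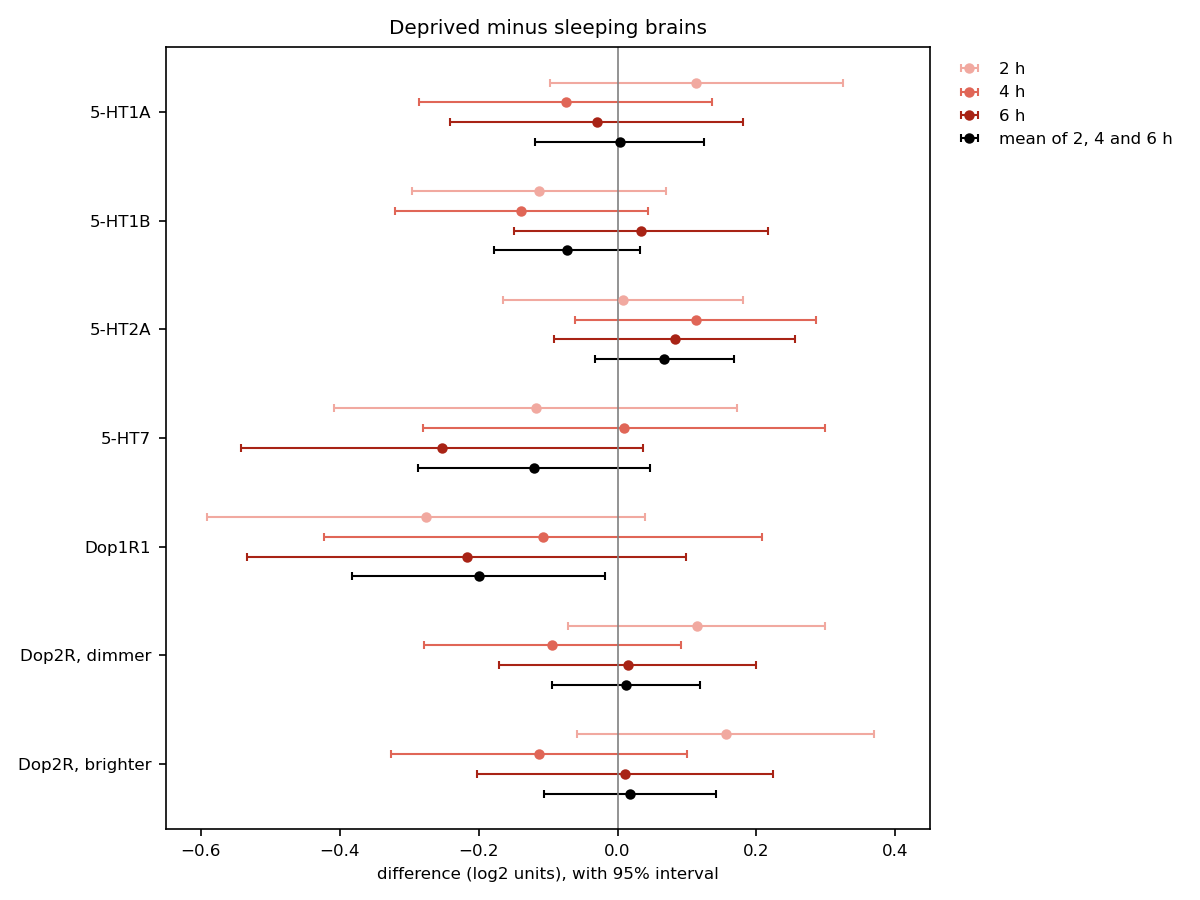
Deprived minus sleeping difference in log2 units (horizontal axis) for each receptor probe set (vertical axis), at 2, 4 and 6 h and as their mean, with 95% intervals from limma. Of the 7 intervals of the mean, drawn in black, only that of Dop1R1 lies wholly below 0 (-0.38 to -0.02), and it does not pass the adjustment over all probe sets.

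The difference also did not drift with the length of waking in a way these arrays could resolve. For the change of the deprivation effect between 2 and 6 h, limma called 0 of 7 receptor probe sets, 0 of 7 had an unadjusted p under 0.05, and of all probe sets 0.00716% and 3.32% did so. Estimates ran from -0.14 (the brighter Dop2R probe set) to 0.15 (5-HT1B), with a median SE of 0.143. A moderated F test of the 3 hours together called 0 of 7 as well, with 0 of 7 at an unadjusted p under 0.05, against 0.222% and 12% of all probe sets.

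Linear changes from ZT14 were fitted in deprived and in sleeping flies. These 2 fits share the ZT14 arrays. In each, limma called 0 of 7, and 1 of 7, the dimmer Dop2R probe set, had an unadjusted p under 0.05. Over all probe sets 0.294% were called in deprived flies and 0.107% in sleeping flies, and 15.7% and 7.89% had an unadjusted p under 0.05. The dimmer Dop2R probe set read 3.74, 3.71 and 3.82 at ZT14. At 6 h it read 3.96, 3.89 and 4.06 in deprived brains, against 3.80, 4.03 and 4.05 in sleeping brains. The slope was 0.031 ± 0.014 log2 units per hour in deprived flies (SE; adjusted p = 0.292) and 0.040 ± 0.014 in sleeping flies (adjusted p = 0.460). The brighter Dop2R probe set gave 0.0051 ± 0.016 in deprived flies (adjusted p = 0.875) and 0.017 ± 0.016 in sleeping flies (adjusted p = 0.839).

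Batches were read from the scanner settings. At 2 and 6 h every deprived array and its hour's sleeping arrays were hybridised in different runs, so run and deprivation cannot be told apart within those hours. At 4 h only run 2 held both conditions, with 1 deprived and 2 sleeping arrays. Within that run 5-HT1B, the probe set that separated at 4 h, differed by -0.02 log2 units. Within the 2 chip lots that held both conditions at more than 1 array, the mean Dop1R1 difference was -0.10 (lot 2) and -0.27 (lot 3, which holds deprived 2 h replicate 2). For 5-HT7 it was -0.15 and -0.08, for 5-HT1B -0.02 and -0.10, and for 5-HT2A 0.03 in both. 5-HT1A (0.01 and -0.01) and both Dop2R probe sets (0.09 and -0.05; 0.15 and -0.03) changed sign between lots.

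The active period experiment asked what handling does when flies are already awake. In stimulated against wake brains limma called 0 of 7 receptor probe sets, against 0.0859% of all. At an unadjusted p under 0.05 there was 1 of 7, Dop1R1, against 7.03% of all. Dop1R1 read 5.85, 5.92 and 6.28 in stimulated brains, against 5.55, 5.72 and 5.96 in wake brains; every stimulated array was above the wake mean, but the groups overlapped. The difference was 0.27 ± 0.123 log2 units (SE; 1.21-fold; adjusted p = 0.702), positive where the deprivation difference was negative. It was 0.14 without stimulated replicate 3 and 0.17 without wake replicate 1, the only active period array of another chip lot. The actin control's 3' excess ran from 2.41 to 2.78 in stimulated brains, against 2.07 to 2.69 in wake brains, and with the control differences as a covariate the estimate was 0.15.

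Groups did not overlap for 3 of 7 receptor probe sets in stimulated against wake brains, where 12.5% of all probe sets did not. 5-HT1A was lower, at 5.52, 5.61 and 5.47 in stimulated brains, against 5.71, 5.68 and 5.62 in wake brains. 5-HT2A was higher, at 5.92, 6.02 and 6.00 in stimulated brains, against 5.81, 5.88 and 5.91 in wake brains. The brighter Dop2R probe set was higher, at 6.36, 6.39 and 6.48 in stimulated brains, against 6.34, 6.23 and 6.33 in wake brains. These gaps were small: the differences were -0.14 ± 0.076, 0.11 ± 0.071 and 0.11 ± 0.073 log2 units in that order (SE; limma adjusted p = 0.745, 0.775 and 0.779). The dimmer Dop2R probe set went the other way from the brighter one, at -0.13 log2 units, with overlapping groups. Differences for 5-HT1B (-0.19 ± 0.096) and 5-HT7 (-0.19 ± 0.120) had overlapping groups and adjusted p = 0.709 and 0.778. Each leaned on 1 array: 5-HT1B was at -0.12 without wake replicate 1, and 5-HT7 at -0.11 without stimulated replicate 3. Antenna and chemosensory markers also separated, at 5.87 to 6.55 in stimulated brains, against 5.33 to 5.85 in wake brains, and their part was not tested.

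**Figure D4:**
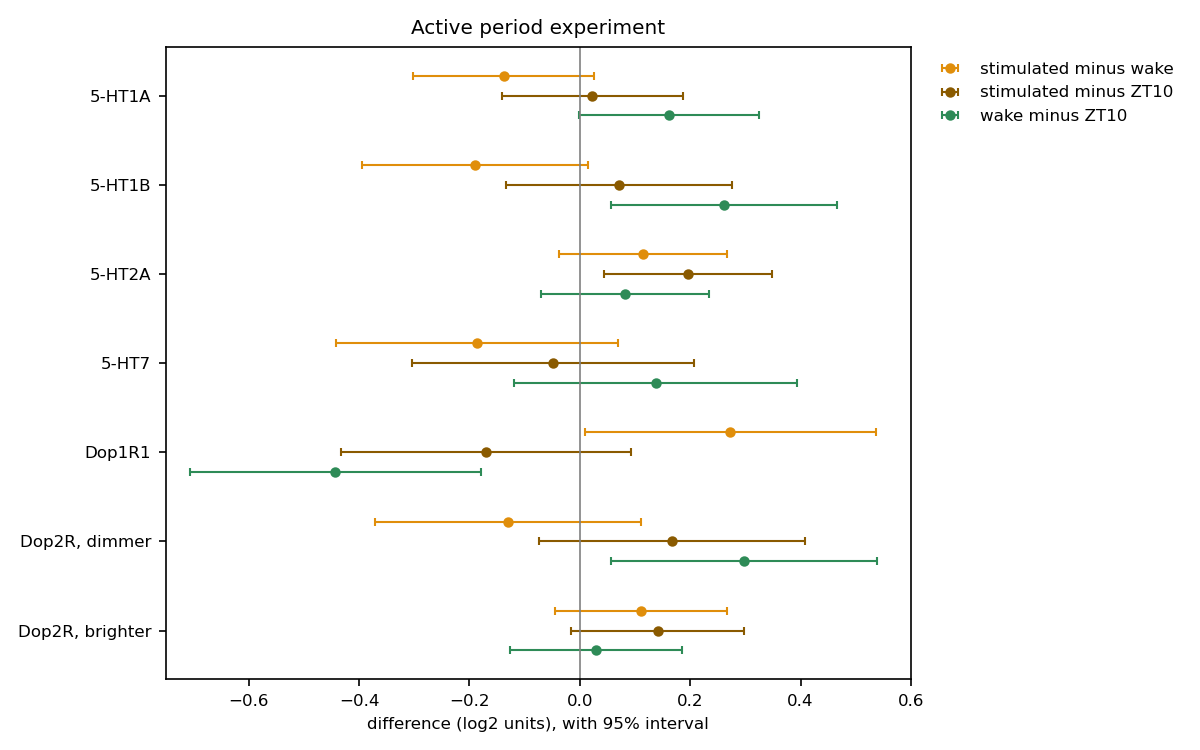
Differences in log2 units (horizontal axis) for each receptor probe set (vertical axis) in the active period experiment, with 95% intervals from limma: stimulated minus wake, stimulated minus ZT10 and wake minus ZT10. Dop1R1 is low in wake brains relative to both other groups (stimulated minus wake 0.27, wake minus ZT10 -0.44), and none of the differences passes the adjustment.

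Undisturbed brains were also compared between ZT14 and ZT10, and Dop1R1 was again at the extreme of the receptors. Lights went off between these times, so hour and light cannot be told apart here. In wake against ZT10 brains limma called 0 of 7, and 3 of 7 had an unadjusted p under 0.05; of all probe sets 0.0644% and 11.4% did so. Dop1R1 read 5.55, 5.72 and 5.96 in wake brains, against 6.35, 6.11 and 6.11 at ZT10, with all wake arrays lower. That was the largest receptor difference in any comparison, at -0.44 ± 0.123 log2 units (SE; 0.736-fold with a 95% interval of 0.613 to 0.883; unadjusted p = 0.00279, adjusted p = 0.236). It ranked 165 of 13966 by p. With single arrays left out it stayed between -0.55 and -0.34, and the smallest adjusted p was 0.0840.

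Of the others, 5-HT1B read 5.10, 4.84 and 4.90 in wake brains, against 4.52, 4.74 and 4.79 at ZT10, a difference of 0.26 ± 0.096 (SE; limma adjusted p = 0.370). The dimmer Dop2R probe set read 4.19, 3.90 and 3.91 in wake brains, against 3.73, 3.86 and 3.51 at ZT10, a difference of 0.30 ± 0.113 (adjusted p = 0.374). These readings lie inside the range of the mouse and yeast controls. The brighter Dop2R probe set differed by 0.03 log2 units, and its groups overlapped. 5-HT1A read 5.71, 5.68 and 5.62 in wake brains, against 5.52, 5.59 and 5.43 at ZT10 (0.16 ± 0.076, adjusted p = 0.443). In all, groups did not overlap for 5 of 7 receptor probe sets, against 16.2% of all probe sets. Of these, 4 were higher in wake brains (5-HT1A, 5-HT1B, 5-HT2A and the dimmer Dop2R probe set) and Dop1R1 was lower. The median of the 7 differences was 0.14 log2 units, against 0.02 for all probe sets. Photoreceptor markers (3 of 9 measured) ran from 6.53 to 6.99 in wake brains, against 7.43 to 7.69 at ZT10, and their part was not tested.

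Stimulated brains, which share the ZT10 arrays in their comparison, gave 0 of 7 called against ZT10 and 1 of 7 at an unadjusted p under 0.05, where 0.251% and 10.1% of all probe sets passed. The one was 5-HT2A, at 5.92, 6.02 and 6.00 in stimulated brains, against 5.76, 5.78 and 5.81 at ZT10 (0.20 ± 0.071, SE; limma adjusted p = 0.372). 5-HT2A and the brighter Dop2R probe set made 2 of 7 whose groups did not overlap, against 17.4% of all. Fat body markers separated too, at 9.20 to 9.33 in stimulated brains, against 8.60 to 9.08 at ZT10, and their part was not tested. Dop1R1 was at -0.17 ± 0.123 (adjusted p = 0.647).

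A fit over all 30 arrays took the 4 h deprivation effect minus the stimulation effect as its contrast. The deprivation effect sets handled flies against sleeping flies, and the stimulation effect sets handled flies against undisturbed wake flies. A handling effect of the same size in both experiments cancels in this contrast. Sleep loss, hour and a handling effect that depends on the hour cannot be told apart in it. Limma called 0 of 7 receptor probe sets, 0 of 7 had an unadjusted p under 0.05, and 0% of all probe sets were called, with 1.76% at an unadjusted p under 0.05. For Dop1R1 the deprivation effect minus the stimulation effect was -0.38 ± 0.215 log2 units (SE; adjusted p = 1.00), with a 95% interval of -0.82 to 0.06, so the opposite signs of these effects are not shown to differ. Among the other probe sets estimates ran from -0.22 (the brighter Dop2R probe set) to 0.20 (5-HT7).

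Across the 30 arrays the receptors did not vary as a block. Over 21 pairs of receptor probe sets, with the mean of each experiment removed, r ran from -0.49 (5-HT1A with 5-HT2A) to 0.67 (5-HT1A with the dimmer Dop2R probe set), and 11 pairs were positive. These are descriptions over arrays that share batches and groups. The named probe set most like 5-HT1A among all on the array was that of Octalpha2R, an octopamine receptor that lowers cyclic AMP, at r = 0.91 over 30 arrays (0.91 over the 21 deprivation arrays and 0.88 over the 9 active period arrays). trv came next at 0.85. Octalpha2R ran from 6.77 in deprived 2 h replicate 2 to 7.50 in deprived 2 h replicate 1, where 5-HT1A read 5.48 and 5.85.

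**Figure D5:**
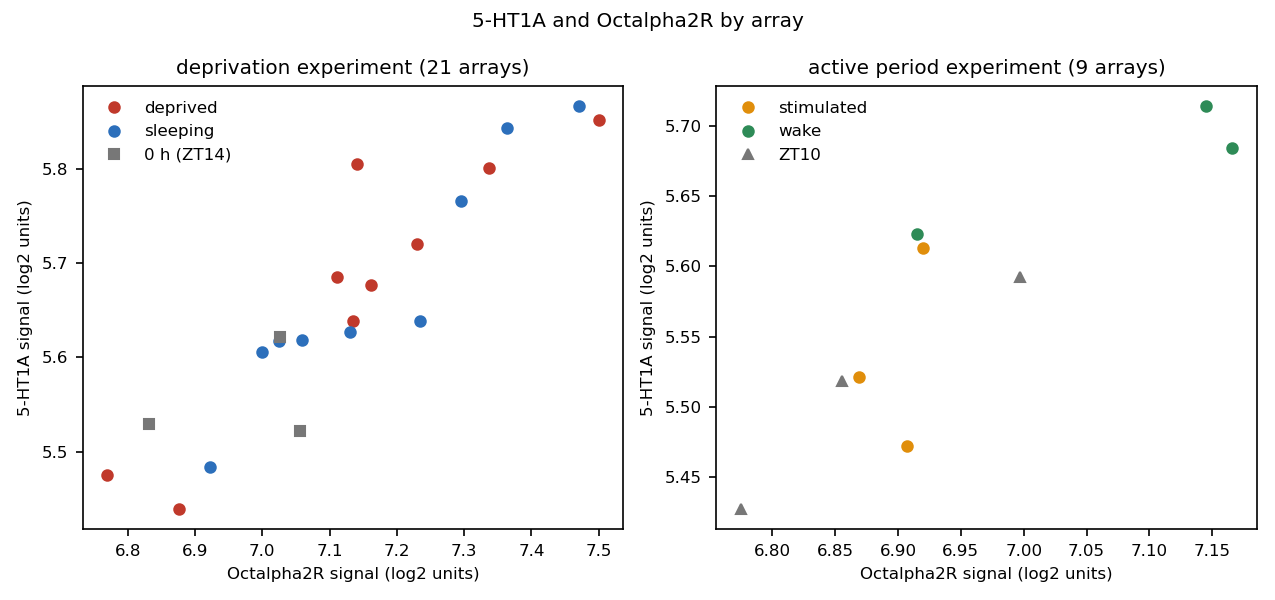
5-HT1A log2 signal (vertical axis) against Octalpha2R log2 signal (horizontal axis), 1 point per array, for the 21 deprivation arrays (left) and the 9 active period arrays (right); the axes of the panels differ. In both panels arrays with more Octalpha2R signal have more 5-HT1A signal (r = 0.91 and 0.88). On the left, deprived and sleeping points are mixed from an Octalpha2R signal of 6.92 upward. Deprived points at 6.77 and 6.88 lie below every sleeping point.

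For Dop1R1 the most alike were sm, which encodes an RNA-binding protein, at r = 0.82, and Vha16-1, a subunit of the vacuolar proton pump, at 0.80. Both rested partly on deprived 2 h replicate 2, and without it r was 0.68 and 0.63. For 5-HT7 they were hppy, a protein kinase, at 0.86 and Kap3, a kinesin-associated protein, at 0.86. For 5-HT1B they were CG6051 (0.80) and CG34357 (0.79), and for 5-HT2A kn, a transcription factor (0.71), and VhaM9.7-a (0.69). The 2 Dop2R probe sets had different partners, CG31036 (0.74) and CG32425 (0.73) for the dimmer, and CG13786 (0.83) and CG13049 (0.79) for the brighter. Several of these were looser among the 9 active period arrays, where r was 0.57 and 0.44 for the partners of 5-HT2A and 0.49 and 0.54 for those of the brighter Dop2R probe set.

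The remaining monoamine receptors gave no call either. Of 9 listed (5-HT2B, Octbeta1R, Octbeta2R, Octbeta3R, Octalpha2R, Oct-TyrR, TyrR, TyrRII and DopEcR), all 9 were measured and limma called 0 in any of the 13 tests. At an unadjusted p under 0.05 there were 0 to 1 in each. In deprived against sleeping brains their median was 0.02 log2 units, with 5 higher and 4 lower, where 54.2% of all probe sets were higher. The smallest p values there belonged to Oct-TyrR, a receptor for octopamine and tyramine, at 0.16 ± 0.108 (SE; adjusted p = 0.489), and TyrRII, a tyramine receptor, at 0.09 ± 0.060 (adjusted p = 0.498). Oct-TyrR was at 0.10 without deprived 4 h replicate 2, and TyrRII at 0.05 without deprived 2 h replicate 1.

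Of the genes that make, store, take up or inactivate monoamines, 13 of 18 were measured, and calls appeared here. speck, which encodes the enzyme that acetylates dopamine and serotonin, fell by 0.22 on the log2 scale in deprived brains (SE 0.050; limma adjusted p = 0.0338). It read 7.97 ± 0.08 at ZT14 (SD, n = 3). At 2 h it averaged 7.53 ± 0.07 in deprived brains, against 7.65 ± 0.03 in sleeping brains. At 4 h it averaged 7.45 ± 0.14 in deprived brains, against 7.64 ± 0.01 in sleeping brains, and at 6 h 7.23 ± 0.15 against 7.59 ± 0.14. Deprived and sleeping arrays did not overlap at any of the 3 hours. Its change from ZT14 was -0.11 ± 0.014 log2 units per hour in deprived flies (adjusted p = 0.000159) and -0.06 ± 0.014 in sleeping flies (adjusted p = 0.161). The call in the mean was lost in 6 of 12 other settings, blocks for chip lot and hybridisation run among them, and with 14 of 18 single arrays left out.

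e (ebony), which couples beta-alanine to dopamine in glia, differed between groups killed at different hours, and its comparisons with ZT10 also cross lights-off. It fell by 0.66 on the log2 scale in wake brains relative to ZT10 (limma adjusted p = 0.00234) and by 0.62 in stimulated brains relative to ZT10 (adjusted p = 0.00234), 2 comparisons that share the ZT10 arrays. It read 5.37, 5.42 and 5.25 in stimulated brains and 5.20, 5.36 and 5.34 in wake brains, against 5.96, 5.96 and 5.97 at ZT10. In the deprivation experiment e and speck were the 2 listed genes that differed among the 7 groups (adjusted p = 0.00708 and 0.00508). e averaged 5.48 ± 0.08 at ZT14 and, at 6 h, 5.77 ± 0.17 in deprived brains, against 5.94 ± 0.13 in sleeping brains (SD, n = 3 each). The linear change of e from ZT14 was 0.059 ± 0.014 log2 units per hour in sleeping flies (SE, limma adjusted p = 0.136). In deprived flies it was 0.038 ± 0.014 (adjusted p = 0.219), so neither was called. The mean difference of e between deprived and sleeping brains was -0.03 ± 0.049 (SE; adjusted p = 0.815). Ddc, which makes dopamine and serotonin from their precursors, was at 0.13 ± 0.055 (adjusted p = 0.317).

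Downstream of the receptors, 29 of 38 listed genes for G proteins, adenylyl cyclases, phospholipase C, kinases and arrestins were measured, and limma called 0 in each of the 13 tests. In deprived against sleeping brains 9 were higher and 20 lower, where 45.8% of all probe sets were lower. Their median was -0.03 log2 units, against 0.0095 for all probe sets. Of the 29 genes, 3 had an unadjusted p under 0.05 in limma, where 14.4% of all probe sets passed. krz, the arrestin that turns off many G protein coupled receptors, was at -0.19 ± 0.078 (SE; adjusted p = 0.297). Its signal is dim, at 3.65 to 4.49, and on most arrays lay inside the range of the mouse and yeast controls. Plc21C, a phospholipase C, was at -0.42 ± 0.184 (adjusted p = 0.317), and its lowest reading, 4.08, was in deprived 2 h replicate 2, the array lowest for neuron markers and Dop1R1. Without that array the difference was -0.25 for Plc21C and -0.14 for krz.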

How the data were processed

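The deposited values are log2 signals that the authors made with the robust multi-array average (RMA), per the series' design text and the submitters' processing notes, which name affy and RMA. Their versions were not given in the sources used here. RMA equalises array distributions, which would hide a shift common to most transcripts. The table has 14010 probe sets; without its 44 controls, 12443 have 1 symbol, 327 several and 1196 none. Symbols were updated by gene number (12394 matched).

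Groups come from the titles. For sleeping 6 h replicate 1 the source name reads deprived while title and description read sleeping; it was kept as sleeping. Whether both experiments were normalised together is not stated, so tests were fitted within an experiment, except the contrast of the deprivation and stimulation effects, which used all 30 arrays. limma 3.58.1 in R 4.3.3 fitted 1 mean per group, with p-values adjusted (Benjamini and Hochberg) over 13966 probe sets at 0.05. In a list each gene counts once, by its brightest probe set. The p-values measure the spread between pools. Named genes were all receptors, called genes of the lists, up to 2 genes per list with the smallest p, and the 2 named probe sets most correlated with each receptor. Receptors, lists and tests were chosen with earlier results of these data known. Fits were tested on simulated data. Alternatives covered normalisation, filters, arrays included, variance, batch and replicate blocks, a control covariate, the threshold of 0.10 and single arrays left out.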

Additional observations from a re-analysis of the deposited data

How the results depend on the processing

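The count of receptor probe sets called stayed at 0 in 301 of 304 alternative settings over the 13 tests. The other 3 used array weights, which called 2 at 4 h (5-HT1B -0.22, adjusted p = 0.0297; 5-HT2A 0.22, adjusted p = 0.0375), 2 for the change from ZT14 in sleeping flies (5-HT2A and the dimmer Dop2R probe set) and 5 for any difference among 7 groups; with these weights 14%, 5.71% and 43.8% of all probe sets were called in limma. The cause was not tested. Leaving out the dimmest probe sets removed 5-HT7 and the dimmer Dop2R probe set.

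In the mean of deprived minus sleeping, uncalled differences of 4 probe sets changed sign, among them 5-HT7, whose difference was -0.12. Array weights gave -0.042 for 5-HT1A, -0.014 for the dimmer Dop2R probe set and -0.0051 for the brighter one. Repeated quantile normalisation gave -0.0013 for the dimmer Dop2R probe set, and the control covariate gave 0.071 for 5-HT7 and -0.016 for the brighter Dop2R probe set. With single arrays left out, 5-HT1A ran from -0.025 to 0.038, the dimmer Dop2R probe set from -0.015 to 0.034 and the brighter one from -0.019 to 0.045. The range was -0.096 to -0.041 for 5-HT1B, 0.038 to 0.092 for 5-HT2A, -0.16 to -0.065 for 5-HT7 and -0.25 to -0.11 for Dop1R1.

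Replicate numbers did not pair the arrays: 5 of 9 pairs in the deprivation experiment and 0 of 3 in the active period experiment correlated above 0.1, and 4 and 1 of them correlated best with their own number. A replicate block left 0 receptor probe sets called in every test (Dop1R1 -0.20, adjusted p = 0.336) and removed the call of speck. Dim signal limits 5-HT7 and the dimmer Dop2R probe set, and among the other listed genes Oct-TyrR and krz. The 3 arrays per group limit every value.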
